A study of Homo sapiens with 12 samples.

Results

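The 10 genes described here are the transcriptional coactivators YAP1 and WWTR1 (the gene of TAZ), the DNA-binding partners TEAD1 and TEAD4, the kinase LATS2, the adaptors AMOTL2 and AJUBA, and the target genes CYR61 (also called CCN1), CTGF (also called CCN2) and ANKRD1. Their rows were taken by gene name, and all 10 were found among the 58302 genes of the expression table. RNA-sequencing had been carried out on 3 established human prostate cell lines with 4 libraries each. BPH-1 is a benign prostate cell line, and DU145 and PC3 are prostate cancer (PCa) cell lines. All 3 lines were labelled as wild type, were grown in the same medium (DMEM with serum and antibiotics) and carry no label of a treatment. Each line stands for 1 established culture rather than for a group of patients, and nothing in the labels says whether the 4 libraries of a line came from separate cultures, so that the P values measure the spread between these libraries only.

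In the Hippo pathway, a cascade of kinases ends at LATS1 and LATS2, which phosphorylate YAP and TAZ and keep them out of the nucleus. YAP and TAZ that escape phosphorylation bind TEAD transcription factors on DNA and switch on genes such as CTGF, CYR61 and ANKRD1. LATS2 and AMOTL2, which restrain YAP and TAZ, and AJUBA, which restrains LATS kinases, are themselves known targets of YAP and TAZ. The pathway responds to cell density, cell shape and serum, and YAP and TAZ are controlled largely at the protein level, which RNA-sequencing does not measure.

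Values are FPKM, fragment counts scaled to the length of the gene and to the number of fragments in the library. Libraries held between 12950664 and 16309561 recovered reads. The lines differed in their epithelial markers, since 7 of 7 passed 1 FPKM in at least 1 library of BPH-1, 4 of 7 in PC3 and 2 of 7 (KRT8 and KRT18) in DU145. The epithelial adhesion genes EPCAM and CDH1 were near 0 in DU145 (0.376 ± 0.168 and 0.180 ± 0.0936), against 60.8 ± 2.28 and 28.4 ± 12.2 in BPH-1 and 9.10 ± 1.81 and 0.786 ± 0.44 in PC3. Of markers of other cells, the summed FPKM was at most 3.98 for 6 fibroblast genes and 2.28 for 3 endothelial genes. Of 3 blood genes, with a sum of 4.83 to 13.5, CD68 was at 10.9 ± 2.97 in PC3, 6.17 ± 2.65 in DU145 and 4.71 ± 1.36 in BPH-1, PTPRC was at 1.35 ± 0.163 in BPH-1, 0.649 ± 0.751 in DU145 and 0 in PC3, and the T cell marker CD3E was at 0 in all libraries. PC3 had the low CTNNA1 (0.0495 ± 0.0163, SD, n = 4) known for that line, and KLK3 (the gene of PSA) was at 0 in all 12 libraries. The summed FPKM of the proliferation markers MKI67 and TOP2A lay between 166.7 and 194.7 in BPH-1, between 1.24 and 18.9 in DU145 and between 3.09 and 29.97 in PC3.

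Libraries of the same line also differed in the balance of GC-rich and GC-poor genes. The GC tilt of a library is used here as the median deviation of genes with over 57.6% GC minus that of genes with under 44.2% GC, on the log2 scale. It lay between -1.12 and -0.96 in BPH-1. In DU145 it was 1.16, -0.32, 1.70 and -0.05 in replicates 1 to 4, and in PC3 it was 0.10, 0.17, 0.59 and 1.20. DU145 replicates 1 and 3 and PC3 replicate 4 thus stood apart from the others of their line. The part of GC tilt in the differences between lines was not tested, and for the 10 genes a value without these 3 libraries is given beside each call that it changes.

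The target genes were those that set DU145 apart most from both other lines. CTGF (ENSG00000118523, minus strand of chromosome 6, 131948176 to 131951373, GRCh38) codes for a secreted matricellular protein and is among the most used readouts of YAP activity. ANKRD1 (ENSG00000148677, minus strand of chromosome 10, 90912096 to 90921276) codes for a nuclear and sarcomeric ankyrin repeat protein. CYR61 (ENSG00000142871, plus strand of chromosome 1, 85580761 to 85583962) codes for a matricellular protein of the same family as CTGF. The 250 bases before the start sites of CTGF and ANKRD1 are shown because these 2 genes had the largest differences of the 10 between DU145 and either other line and their windows held the most matches to the TEAD motif GGAATG, which is in capitals. The sequences come from RefSeq (GRCh38.p14), are read 5′ to 3′ on the minus strand, and lie at chr6:131951373-131951622 for CTGF and chr10:90921088-90921337 for ANKRD1. The annotated span of ANKRD1 in the expression table reaches into its window.
CTGF: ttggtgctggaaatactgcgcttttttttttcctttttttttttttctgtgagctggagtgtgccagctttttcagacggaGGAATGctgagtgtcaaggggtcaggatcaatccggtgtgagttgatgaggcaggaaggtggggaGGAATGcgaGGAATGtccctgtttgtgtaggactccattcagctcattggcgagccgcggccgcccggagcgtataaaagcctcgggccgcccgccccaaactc
ANKRD1: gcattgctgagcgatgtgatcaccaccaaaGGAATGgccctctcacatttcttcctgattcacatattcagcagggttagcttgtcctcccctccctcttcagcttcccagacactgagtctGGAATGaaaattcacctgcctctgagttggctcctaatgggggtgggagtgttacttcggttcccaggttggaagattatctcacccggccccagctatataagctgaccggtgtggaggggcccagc

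Windows from 250 bases before to 50 bases after a start site were found for 7 of the 10 genes (10 windows). CTGF held 3 matches to GGAATG on either strand, starting at positions -169, -104 and -95 from the start site, and ANKRD1 held 2, starting at -220 and -128. The windows of YAP1 and LATS2 and 1 of the 2 windows each of AMOTL2 and AJUBA held 1 match, and both windows of WWTR1 held 0. Of 35116 windows of the same length over all genes, 14% held at least 1 match, 1.37% at least 2 and 0.128% at least 3. The AP-1 motif TGANTCA, which reads the same on both strands, was found in the ANKRD1 window alone, at -195 and without overlap with a GGAATG match, against 7.71% of all windows. A match is a run of letters and does not show that a factor was bound there. CYR61, TEAD1 and TEAD4 are named here without a window.

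**Figure D1:**
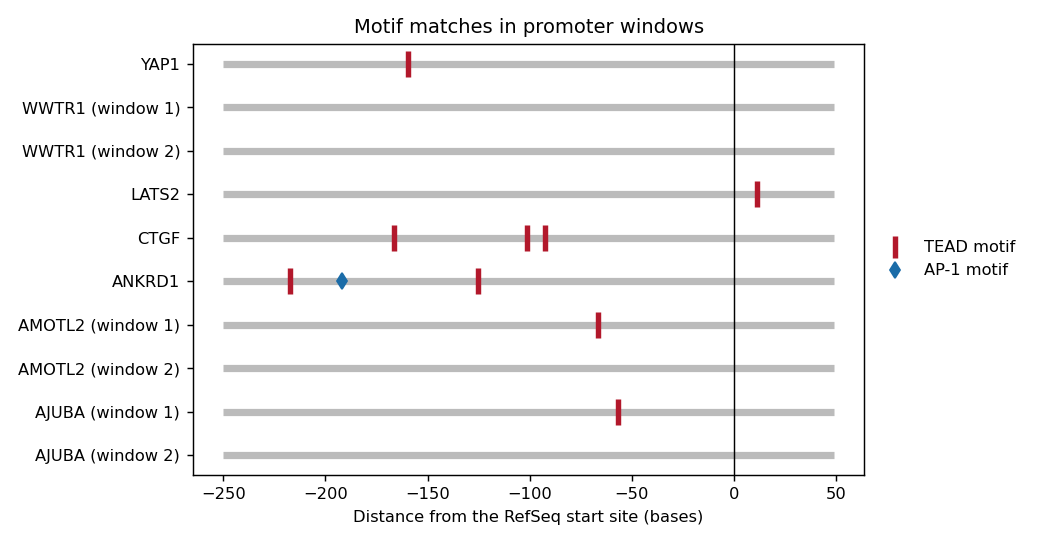
Matches to the TEAD motif (bars) and the AP-1 motif (diamond) on either strand in the RefSeq promoter windows of 7 genes, by distance from the start site in bases; each grey line is 1 window. CTGF holds 3 TEAD matches and ANKRD1 holds 2 with 1 AP-1 match.

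In DU145, all 3 target genes were higher than in either other line, with no overlap between libraries. ANKRD1 stood at 188, 343, 151 and 235 FPKM in DU145 replicates 1 to 4, at 3.28, 4.6, 2.21 and 3.27 in BPH-1 and at 0.702, 0.516, 0.401 and 0.585 in PC3. The PC3 values rest on 11 to 18 reads per library, close to the lower limit of the test. The mean was 229 ± 83.3 in DU145, 3.34 ± 0.978 in BPH-1 and 0.551 ± 0.126 in PC3 (SD, n = 4 each). The mean of ANKRD1 was thus 68.6-fold higher in DU145 than in BPH-1 (log2 fold change of FPKM + 1, 5.69 ± 0.26 SE, limma adjusted P = 2.56e-07). It was 415.6-fold higher in DU145 than in PC3 (log2 fold change, PC3 minus DU145, -7.15 ± 0.24, adjusted P = 9.52e-08). It was also 6.06-fold higher in BPH-1 than in PC3 (log2 fold change, -1.46 ± 0.16, adjusted P = 4.14e-05), so that the 3 lines followed the order DU145, BPH-1, PC3 with every neighbour apart. With the GC trend divided out (a correction for the base composition of each library), the mean was 135.5-fold higher in DU145 than in BPH-1 (log2 fold change 6.53, adjusted P = 5.64e-08) and 3.17-fold higher in BPH-1 than in PC3 (-0.90, adjusted P = 0.000957). In bulk RNA, a higher level in each cell and a larger share of cells with the transcript cannot be told apart.

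CTGF showed the same high level in DU145 but no difference between BPH-1 and PC3 that passed the test. It stood at 423, 481, 415 and 313 FPKM in DU145, at 18.9, 24.7, 15.7 and 11.6 in BPH-1 and at 23.0, 13.7, 9.49 and 21.6 in PC3. The DU145 libraries lay far above all others, and the libraries of BPH-1 and PC3 overlapped. The mean was 408 ± 69.9 in DU145, 17.7 ± 5.53 in BPH-1 and 16.9 ± 6.44 in PC3 (SD, n = 4 each). This made CTGF 23.0-fold higher in DU145 than in BPH-1 (log2 fold change, 4.48 ± 0.23, limma adjusted P = 4.25e-07) and 24.1-fold higher than in PC3 (log2 fold change, PC3 minus DU145, -4.57 ± 0.27, adjusted P = 2.24e-06). The log2 fold change of PC3 against BPH-1 was -0.09 with a 95% interval from -0.76 to 0.58 (adjusted P = 0.80). Its sign changed with the scaling and with the library left out, from 0.08 without BPH-1 replicate 2 to 0.14 without PC3 replicate 3.

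CYR61 had the highest mean FPKM, a level per length, of the 10 genes in every line. It stood at 699.9, 589.7, 818 and 537 FPKM in DU145, at 118, 159, 94.1 and 67.9 in BPH-1 and at 89.9, 54.9, 46.3 and 93.2 in PC3. Again the DU145 libraries were all above the rest, while BPH-1 and PC3 overlapped. The mean of 661 ± 125 in DU145 was 6.02-fold above the 109.9 ± 38.9 of BPH-1 (log2 fold change, 2.63 ± 0.25, limma adjusted P = 1.70e-05) and 9.30-fold above the 71.1 ± 24.0 of PC3 (log2 fold change, PC3 minus DU145, -3.24 ± 0.25, adjusted P = 1.04e-05). PC3 against BPH-1 gave -0.62 with an interval from -1.29 to 0.05 (adjusted P = 0.0935). That difference passed the test without BPH-1 replicate 4 (-0.82, adjusted P = 0.034), with the summed FPKM of the libraries made equal (-0.89, adjusted P = 0.0267) and with the trend against GC content divided out of each library (-0.81, adjusted P = 0.0348). The differences of the 3 target genes between DU145 and either other line passed the test in each of the 21 alternatives run, including the fit without the 3 libraries of high GC tilt.

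**Figure D2:**
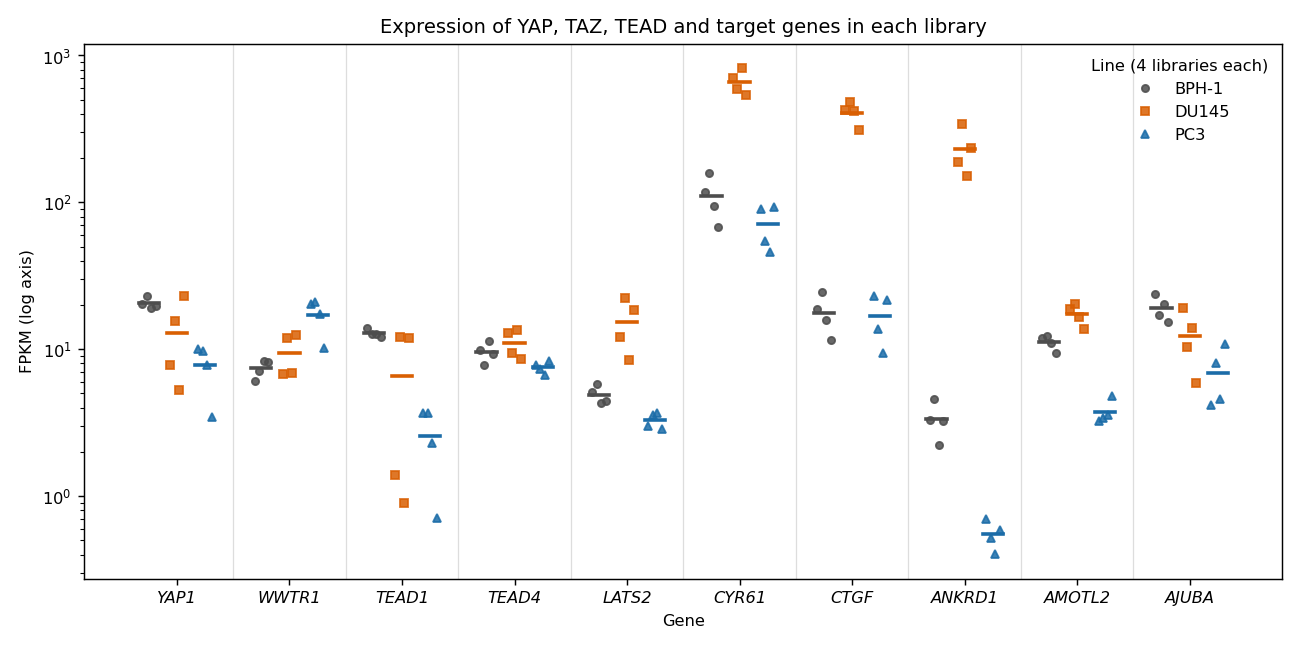
FPKM of the 10 genes in each of the 12 libraries on a log axis; each point is 1 library, horizontal bars are means of 4 libraries, and libraries run from replicate 1 to 4 from left to right within a line. CYR61, CTGF and ANKRD1 lie between 151 and 818 in DU145, above all libraries of BPH-1 and PC3, while YAP1 and TEAD1 spread widely within DU145.

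The coactivators shifted from YAP1 towards WWTR1 between BPH-1 and PC3. YAP1 (ENSG00000137693, plus strand of chromosome 11, 102110461 to 102233423) stood at 20.4, 23.0, 19.0 and 19.7 FPKM in BPH-1 and at 9.99, 9.77, 7.81 and 3.47 in PC3. All PC3 libraries were below all BPH-1 libraries. YAP1 was 2.65-fold higher in BPH-1 (20.5 ± 1.76) than in PC3 (7.76 ± 3.02, SD, n = 4 each), with a log2 fold change of -1.38 ± 0.26 in PC3 (limma adjusted P = 0.0012). In DU145, YAP1 stood at 7.86, 15.5, 5.28 and 23.0, a range that overlapped with both other lines. Against BPH-1 the log2 fold change in DU145 was -0.82 ± 0.36 (adjusted P = 0.0739). The 2 low values are those of replicates 1 and 3, whose GC tilt was over 1. Without these 2 libraries the log2 fold change was -0.11 (adjusted P = 0.582), and without DU145 replicate 4 it was -1.14 (adjusted P = 0.00882). It also passed the test with summed FPKM made equal (-1.05, adjusted P = 0.0254). PC3 against DU145 gave -0.56 ± 0.45 (adjusted P = 0.336), which passed the test without the 3 libraries of high GC tilt (-0.97, adjusted P = 0.00813). With 1 library left out, this difference ranged from -0.878 to -0.234.

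WWTR1 (ENSG00000018408, minus strand of chromosome 3, 149517235 to 149736714) stood at 20.2, 21.1, 17.4 and 10.2 FPKM in PC3, at 6.77, 11.8, 6.87 and 12.4 in DU145 and at 6.13, 7.16, 8.36 and 8.14 in BPH-1. No PC3 library fell within the range of BPH-1, and DU145 overlapped with both lines. It was the only one of the 10 genes that was called higher in PC3 than in BPH-1, with a mean of 17.2 ± 4.92 against 7.45 ± 1.02 (2.31-fold, log2 fold change 1.07 ± 0.21, limma adjusted P = 0.00151). DU145 (9.48 ± 3.08) against BPH-1 gave 0.27 ± 0.22 (adjusted P = 0.31), or 0.65 (adjusted P = 0.00587) without DU145 replicates 1 and 3. The rise in PC3 over DU145 (0.80 ± 0.28, adjusted P = 0.0383) passed the test in 12 of 21 alternatives. It was lost when DU145 replicate 1 or 3 or PC3 replicate 1, 2 or 3 was left out (log2 fold changes from 0.67 to 0.78, adjusted P from 0.0847 to 0.103), and the exact permutation test gave P = 0.0857. WWTR1-AS1 lies on the opposite strand over 4345 bases of WWTR1, with mean FPKM of 0.134 in BPH-1, 1.11 in DU145 and 0.37 in PC3, and whether reads were counted by strand is not given in the sources used here.

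The ratio of WWTR1 to YAP1 within a library does not move with the scaling of that library. It lay between 0.301 and 0.440 in BPH-1, between 0.541 and 1.30 in DU145 and between 2.02 and 2.95 in PC3, with no overlap between the lines. As mean log2 ratios these were -1.47 ± 0.28, -0.28 ± 0.52 and 1.21 ± 0.24 (SD, n = 4 each). The differences of 2.68 (PC3 minus BPH-1), 1.19 (DU145 minus BPH-1) and 1.49 (PC3 minus DU145) each had P = 0.0286 by an exact two-sided permutation test, the smallest value that 4 against 4 libraries allow (adjusted P = 0.0429 over 6 ratio tests). With the trend against GC content divided out, the difference between DU145 and BPH-1 was 0.65 (P = 0.0571 by the exact permutation test). YAP1 transcripts hold 45.7% GC and those of WWTR1 49%.

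TEAD1 (ENSG00000187079, plus strand of chromosome 11, 12674591 to 12944483) was even in BPH-1 and uneven elsewhere. It stood at 13.9, 12.8, 12.8 and 12.05 FPKM in BPH-1, at 1.39, 12.2, 0.898 and 11.98 in DU145 and at 3.66, 3.68, 2.29 and 0.706 in PC3. DU145 replicates 2 and 4 were at the level of BPH-1, and replicates 1 and 3 were lower than 3 of the 4 PC3 libraries. The DU145 values rest on 197 to 2820 reads. TEAD1 holds 42.8% GC, the lowest of the 10 genes, and its low values in DU145 and PC3 were those of the libraries with the highest GC tilt. TEAD1 was 4.98-fold higher in BPH-1 (12.9 ± 0.763) than in PC3 (2.59 ± 1.41, SD, n = 4 each), with a log2 fold change of -2.06 ± 0.29 in PC3 (limma adjusted P = 0.000187). Dividing out the GC trend left -1.24 (adjusted P = 0.000656) and leaving out PC3 replicate 4 left -1.74 (adjusted P = 1.95e-05). DU145 (6.61 ± 6.32) against BPH-1 gave -1.39 ± 0.61 (adjusted P = 0.0683). That value was -0.08 (adjusted P = 0.466) without DU145 replicates 1 and 3, and -1.83 (adjusted P = 0.0196 and 0.021) without replicate 2 or 4. It also passed the test with summed FPKM made equal (-1.61, adjusted P = 0.0359). PC3 against DU145 gave -0.66 ± 0.69 (adjusted P = 0.463), and -1.65 (adjusted P = 0.000957) without the 3 libraries of high GC tilt. With 1 library left out, this difference ranged from -1.156 to -0.225.

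TEAD4 (ENSG00000197905, plus strand of chromosome 12, 2959330 to 3040673) varied little between the lines. It stood at 9.91, 7.85, 11.4 and 9.35 FPKM in BPH-1, at 12.9, 9.47, 13.5 and 8.57 in DU145 and at 7.80, 7.30, 6.63 and 8.34 in PC3. With 62.7% GC it is the most GC-rich of the 10 genes, and its 2 highest values are those of DU145 replicates 1 and 3. The mean was 9.62 ± 1.45 in BPH-1, 11.1 ± 2.45 in DU145 and 7.52 ± 0.725 in PC3 (SD, n = 4 each). PC3 was lower than DU145 (log2 fold change, -0.49 ± 0.17, limma adjusted P = 0.0405), a call kept in 8 of 21 alternatives. It was lost when DU145 replicate 1 or 3 or any 1 PC3 library was left out (log2 fold changes from -0.53 to -0.40, adjusted P from 0.05 to 0.112), and without all 3 libraries of high GC tilt the difference was -0.28 (adjusted P = 0.0763). PC3 against BPH-1 gave -0.31 ± 0.13 (adjusted P = 0.0547). This difference passed the test without BPH-1 replicate 2 (-0.40, adjusted P = 0.0191) and without PC3 replicate 4 (-0.36, adjusted P = 0.0355). It also passed with summed FPKM made equal (-0.56, adjusted P = 0.00413) and with the GC trend divided out (-0.79, adjusted P = 0.00157), and turned to 0.06 with upper-quartile scaling. DU145 against BPH-1 gave 0.18 ± 0.19 (adjusted P = 0.434), and the sign turned with the GC trend divided out (-0.34).

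The TEAD family differed in its make-up between the lines, in FPKM, which is per length. The summed FPKM of TEAD1 to TEAD4 was 46.4 ± 1.05 in BPH-1, 33.3 ± 1.65 in DU145 and 42.6 ± 2.89 in PC3 (SD, n = 4 each). In BPH-1, TEAD3 held 38.1% to 47.6% of this sum and TEAD1 25.7% to 29.5%. In PC3, TEAD2 held 49.6% to 54.3% and TEAD1 only 1.52% to 9.28%. In DU145 the share of TEAD1 was 4.42%, 37.0%, 2.65% and 34.0% in replicates 1 to 4, and TEAD4 held 24.3% to 41.2%. TEAD2 was higher in PC3 (22.1 ± 2.29) than in BPH-1 (3.77 ± 0.338), with a log2 fold change of 2.27 ± 0.11 (limma adjusted P = 2.42e-07), and than in DU145 (6.44 ± 1.73), with 1.66 ± 0.18 (adjusted P = 7.77e-05). The mean log2 ratio of TEAD4 to TEAD1 was -0.43 ± 0.22 in BPH-1, 1.57 ± 2.32 in DU145 and 1.79 ± 1.20 in PC3. The difference between PC3 and BPH-1 was 2.23 (exact permutation P = 0.0286, adjusted P = 0.0429 over the 6 ratio tests) and fell to 0.68 (exact permutation P = 0.0857) with the GC trend divided out. Between DU145 and BPH-1 it was 2.002 (exact permutation P = 0.171), with a linear ratio in DU145 of 9.32, 0.778, 14.99 and 0.715, and between PC3 and DU145 it was 0.22 (exact permutation P = 0.971). With 1 library left out, the difference between DU145 and BPH-1 ranged from 1.223 to 2.687. That between PC3 and DU145 ranged from -0.462 to 1.002, so that its sign turned.

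**Figure D3:**
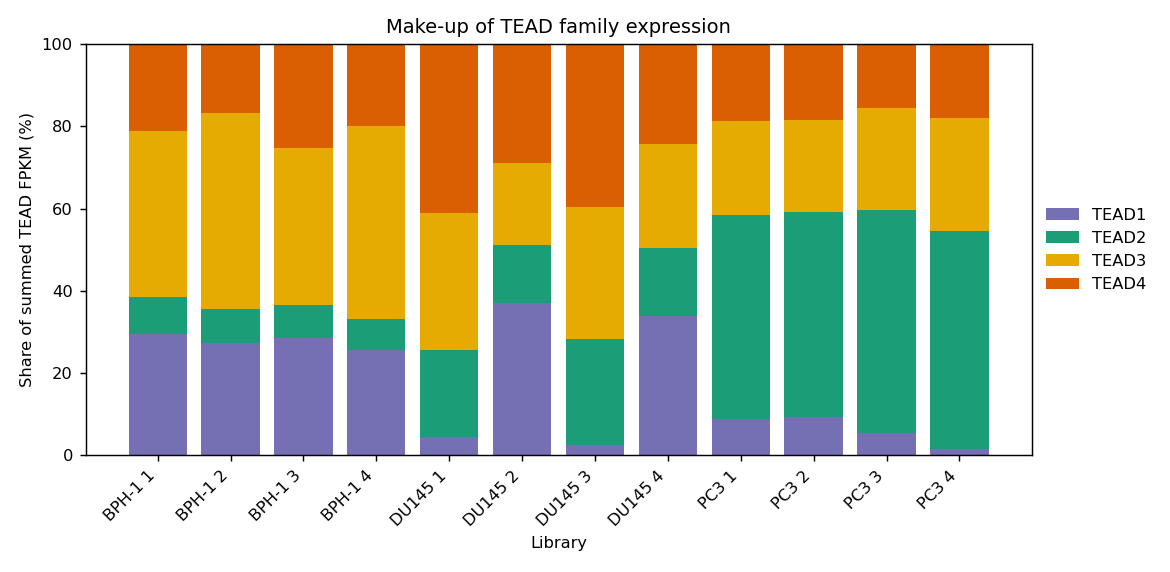
Share of the summed FPKM of TEAD1 to TEAD4 held by each gene, in percent, for each of the 12 libraries; each bar is 1 library. TEAD2 holds 49.6% to 54.3% in PC3, and the share of TEAD1 in DU145 is 37.0% and 34.0% in replicates 2 and 4 against 4.42% and 2.65% in replicates 1 and 3.

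**Figure D4:**
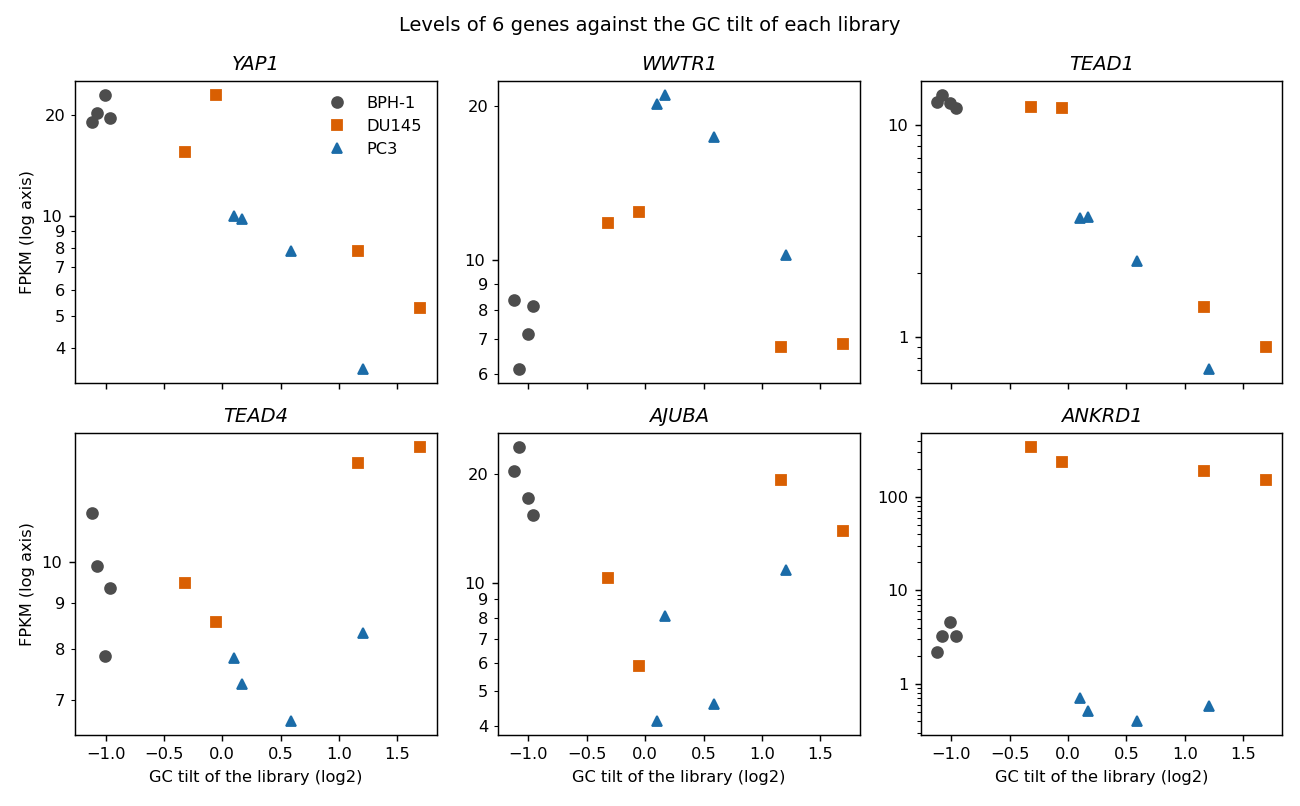
FPKM (log axis) of 6 genes against the GC tilt of the library (log2); each point is 1 of the 12 libraries. YAP1, TEAD1 and WWTR1 are lowest within DU145 and PC3 in the libraries with a tilt over 1, and TEAD4 is highest there. BPH-1 lies between -1.12 and -0.96, at no tilt that a DU145 or PC3 library shares.

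Of the regulators of YAP and TAZ, LATS2 (ENSG00000150457, minus strand of chromosome 13, 20973032 to 21061547), one of the kinases that phosphorylate YAP and TAZ, was highest in DU145. It stood at 12.1, 22.4, 8.40 and 18.5 FPKM in DU145, at 5.10, 5.78, 4.33 and 4.42 in BPH-1 and at 3.01, 3.56, 3.68 and 2.85 in PC3. The 3 lines did not overlap, in the order DU145, BPH-1, PC3. The mean of 15.3 ± 6.28 in DU145 was 3.12-fold above the 4.91 ± 0.675 of BPH-1 (log2 fold change, 1.39 ± 0.27, limma adjusted P = 0.00143) and 4.68-fold above the 3.28 ± 0.407 of PC3 (log2 fold change, PC3 minus DU145, -1.85 ± 0.27, adjusted P = 0.000452). PC3 was slightly lower than BPH-1 (-0.46 ± 0.13, adjusted P = 0.00896), and this difference did not pass the test in 1 fit over the 3 lines (adjusted P = 0.11) or with upper-quartile scaling (-0.13, adjusted P = 0.399). The 2 lower DU145 values were those of replicates 1 and 3.

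AMOTL2 (ENSG00000114019, minus strand of chromosome 3, 134355874 to 134375479), an angiomotin family protein that holds YAP at cell junctions, followed the same order. It stood at 18.7, 20.4, 16.6 and 13.7 FPKM in DU145, at 11.9, 12.3, 11 and 9.50 in BPH-1 and at 3.23, 3.39, 3.58 and 4.83 in PC3. Again the lines did not overlap. AMOTL2 was 2.97-fold higher in BPH-1 (11.2 ± 1.24) than in PC3 (3.76 ± 0.729), with a log2 fold change of -1.36 ± 0.14 in PC3 (limma adjusted P = 2.16e-05). It was 4.62-fold higher in DU145 (17.4 ± 2.91, SD, n = 4 each) than in PC3 (log2 fold change, PC3 minus DU145, -1.95 ± 0.17, adjusted P = 1.97e-05). DU145 was higher than BPH-1 by 0.58 ± 0.17 (adjusted P = 0.0118). AMOTL2 holds 59.6% GC, and that last difference fell to 0.07 (adjusted P = 0.792) with the GC trend divided out and to 0.35 (adjusted P = 0.105) with the summed FPKM made equal.

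AJUBA (ENSG00000129474, minus strand of chromosome 14, 22971174 to 22982642), a LIM domain protein that binds and restrains LATS kinases at junctions, was lowest in PC3. It stood at 23.8, 17.2, 20.4 and 15.4 FPKM in BPH-1, at 19.2, 10.3, 13.9 and 5.89 in DU145 and at 4.14, 8.11, 4.61 and 10.8 in PC3. BPH-1 and PC3 did not overlap, while DU145 overlapped with both. AJUBA was 2.77-fold higher in BPH-1 (19.2 ± 3.71) than in PC3 (6.93 ± 3.16), with a log2 fold change of -1.42 ± 0.27 in PC3 (limma adjusted P = 0.00112). DU145 (12.3 ± 5.65, SD, n = 4 each) against BPH-1 gave -0.69 ± 0.30 (adjusted P = 0.0722), which passed the test without DU145 replicate 1 (-0.92, adjusted P = 0.0205), without replicates 1 and 3 (-1.18, adjusted P = 0.00512) and with the GC trend divided out (-1.07, adjusted P = 0.00881). PC3 against DU145 gave -0.73 ± 0.37 (adjusted P = 0.139), and -1.01 (adjusted P = 0.0398) without DU145 replicate 4. In contrast to TEAD1, YAP1 and WWTR1, AJUBA was higher in PC3 replicate 4 than in the other PC3 libraries. Another annotated gene, AL132780.3, covers 11085 bases of AJUBA on the same strand and was at 0 in all libraries, so that the split of reads between the 2 is uncertain.

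Counted over the 10 genes, 7 were called in PC3 against BPH-1, with WWTR1 higher and YAP1, TEAD1, LATS2, ANKRD1, AMOTL2 and AJUBA lower. In the same fit 67.6% of 16408 genes were called (27.1% higher and 40.4% lower in PC3), so that a call as such is common between these lines. The median log2 fold change of the 10 genes was -0.99, against -0.13 over all genes tested, and the libraries of 7 genes did not overlap between the lines, as was so for 64.4% of all genes tested. In DU145 against BPH-1, 5 genes were called (LATS2, CYR61, CTGF, ANKRD1 and AMOTL2), all of them higher in DU145, against 62.7% of 17016 genes called (30.3% higher and 32.4% lower). The count of lower genes was 0 by limma, by voom and by the exact permutation test, and 3 (YAP1, TEAD1 and AJUBA) by limma at an unadjusted P under 0.05. With summed FPKM made equal, 4 were higher and 3 lower, and with the GC trend divided out 4 were higher and 1 lower. Over all 17016 genes, 4131 were higher and 6569 lower with summed FPKM made equal. With the GC trend divided out these were 5514 and 5086, against 5160 and 5506 in the main comparison. In the main comparison, medians were 0.43 for the 10 genes and -0.03 for all, and 5 genes did not overlap between the lines, against 59.5% of all genes. In PC3 against DU145, 7 genes were called, with WWTR1 higher and TEAD4, LATS2, CYR61, CTGF, ANKRD1 and AMOTL2 lower in PC3, against 48.3% of 16420 genes called (20.0% higher and 28.3% lower). Medians were -1.29 and -0.05, and 6 genes did not overlap, against 46.5% of all genes. The 3 comparisons share libraries and are not independent of each other.

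**Figure D5:**
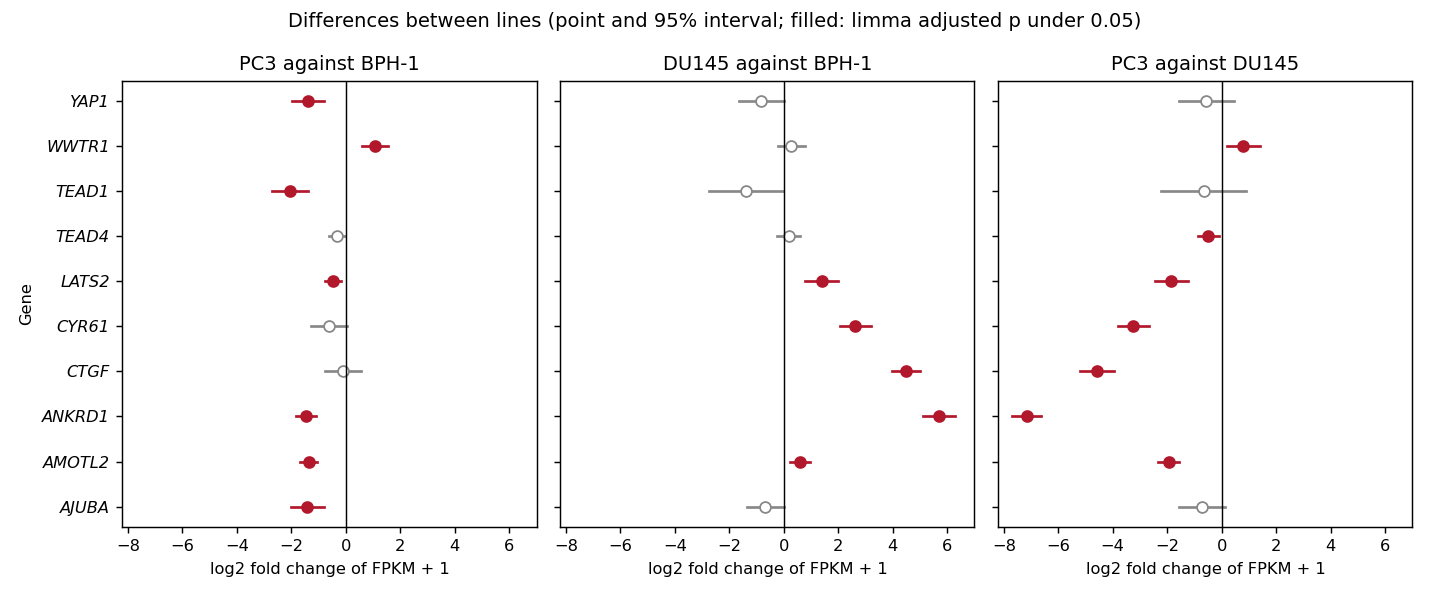
Log2 fold change of FPKM + 1 of the 10 genes in the 3 comparisons, with 95% intervals from limma; filled points have an adjusted P under 0.05. CTGF and ANKRD1 are higher in DU145 by 4.48 and 5.69 against BPH-1, and WWTR1 is the only gene called higher in PC3.

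Other genes of the pathway were grouped by role. Of 17 kinases and scaffolds of the Hippo cascade, 10 were lower and 3 higher in PC3 than in BPH-1 (median log2 fold change -1.07, against -0.13 over all genes), against 40.4% and 27.1% of all genes. In DU145 against BPH-1, 12 were lower and 2 higher (median -0.97, against -0.03), with 32.4% and 30.3% of all genes. The levels of several of these genes varied widely within DU145, with 0.286 to 3.96 FPKM for TAOK1 and 0.0838 to 0.896 for MOB1B. Without DU145 replicates 1 and 3, 10 of the 17 were lower and 1 higher (median -0.61, against -0.03 over all genes). Of 17860 genes tested there, 5334 were lower and 5223 higher. With the GC trend divided out 9 were lower and 1 higher (median -0.46, against 0.03). Of all 17016 genes, 5086 were lower and 5514 higher in that setting. In PC3 the GC trend divided out left 9 lower and 4 higher (median -0.37, against -0.01). Of all 16408 genes, 5354 were lower and 5067 higher there. LATS1, the paralogue of LATS2, was lower in PC3 than in BPH-1 (1.10 ± 0.538 against 6.90 ± 0.691 FPKM, log2 fold change -1.95 ± 0.20, limma adjusted P = 2.27e-05). Its level in DU145 was 1.22 ± 0.914, with libraries from 0.326 to 2.02. The LATS activator MOB1A was lower in PC3 (6.90 ± 3.14) and in DU145 (6.18 ± 3.38) than in BPH-1 (41.9 ± 1.31), with log2 fold changes of -2.53 ± 0.25 (adjusted P = 2.13e-05) and -2.71 ± 0.30 (adjusted P = 4.31e-05). TAOK1, a kinase upstream of the cascade, was lower in PC3 (-2.77 ± 0.29) and in DU145 (-2.62 ± 0.41, adjusted P = 2.74e-05 and 0.00034). MOB1B was lower in DU145 than in BPH-1 (-2.08 ± 0.22, adjusted P = 2.71e-05). With the GC trend divided out, these calls kept their direction and passed the test with smaller values, of -1.09 for LATS1 in PC3 (adjusted P = 9.38e-05), -1.24 and -1.29 for MOB1A in PC3 and DU145 (adjusted P = 1.37e-05 and 8.70e-06), -1.75 and -1.58 for TAOK1 (adjusted P = 8.89e-05 and 0.000865) and -0.82 for MOB1B in DU145 (adjusted P = 0.00077). Without DU145 replicates 1 and 3, TAOK1 gave -1.78 and MOB1A -2.10 in DU145 (adjusted P = 3.79e-05 and 1.50e-05). Called in the other direction, MAP4K4 was at 80.8 ± 15.8 in PC3 against 18.6 ± 1.31 in BPH-1 (2.04 ± 0.15, adjusted P = 3.03e-06), and STK25 and NF2 rose by 0.62 ± 0.10 and 0.36 ± 0.13 (adjusted P = 0.000436 and 0.0352). NF2 and STRN4 were higher in DU145 than in BPH-1 by 0.50 ± 0.17 and 0.63 ± 0.21 (adjusted P = 0.0237 and 0.0231). STK25 gave 0.28 (adjusted P = 0.0253) with the GC trend divided out and 0.95 (adjusted P = 0.000186) with upper-quartile scaling. The calls on NF2 in both lines and on STRN4 did not pass without the libraries of high GC tilt (adjusted P = 0.066, 0.0521 and 0.0643), with the GC trend divided out (adjusted P = 0.368, 0.797 and 0.346) or with summed FPKM made equal (adjusted P = 0.472, 0.163 and 0.115). Between PC3 and DU145, 14 of the 17 genes did not pass the test, where 48.3% of all genes were called. MAP4K4 was higher in PC3 (2.65 ± 0.18, adjusted P = 4.17e-06), and STK3 and WWC1 were lower (-0.49 ± 0.16 and -0.47 ± 0.16, adjusted P = 0.0298 and 0.0385), the latter not without the libraries of high tilt, with the GC trend divided out or with upper-quartile scaling (adjusted P = 0.0631, 0.121 and 0.206).

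Of 8 other junction proteins and LIM adaptors, 7 had enough reads to be tested in each comparison. In PC3 against BPH-1, 2 rose and 4 fell (median -0.70, against -0.13 over all genes, of which 27.1% rose and 40.4% fell). CTNNA1, the gene of the adherens junction protein alpha-catenin, was at 13.8 ± 1.72 FPKM in BPH-1 and at 32.8 ± 2.44 in DU145 (1.20 ± 0.15, limma adjusted P = 7.05e-05), and its low level in PC3 gave -3.81 ± 0.12 against BPH-1 (adjusted P = 2.15e-08) and -5.01 ± 0.13 against DU145 (adjusted P = 2.93e-08). The protocadherin FAT1 was lower in PC3 (-2.39 ± 0.36, adjusted P = 0.00028) and in DU145 (-3.58 ± 0.39, adjusted P = 3.49e-05) than in BPH-1, and so was AMOTL1, the nearest relative of AMOTL2 (-1.69 ± 0.10 and -1.91 ± 0.20, adjusted P = 1.08e-06 and 2.84e-05). The LATS inhibitor LIMD1 was higher in PC3 than in BPH-1 (11.4 ± 2.04 against 3.62 ± 0.26, log2 fold change 1.41 ± 0.14, adjusted P = 1.63e-05), and AMOT rose from a level of 0.152 ± 0.0648 to 1.17 ± 0.468. In DU145 against BPH-1, 3 rose and 2 fell (median 0.07, against -0.03 over all genes, of which 30.3% rose and 32.4% fell), with WTIP and AMOT among the higher ones (0.87 ± 0.14 and 0.52 ± 0.20, adjusted P = 0.00034 and 0.0404), the latter not with the GC trend divided out (adjusted P = 0.0513) or with summed FPKM made equal (adjusted P = 0.0505), and at 0.93 (adjusted P = 8.11e-05) without DU145 replicates 1 and 3. Without these 2 libraries, 4 of the 7 rose and 2 fell (median 0.42, against -0.03 over all genes). Of 17860 genes tested there, 5223 rose and 5334 fell. With summed FPKM made equal 2 rose and 2 fell (median -0.12, against -0.16 over all genes). Of all 17016 genes, 4131 rose and 6569 fell in that setting. FAT1 in DU145 gave -2.80 (adjusted P = 3.47e-05) without replicates 1 and 3. In PC3 against DU145, LIMD1 rose (1.33 ± 0.16, adjusted P = 0.000139), and CTNNA1, WTIP (-0.96 ± 0.12, adjusted P = 0.000181) and FAT4 (-0.64 ± 0.23, adjusted P = 0.0469, and -1.10 without the 3 libraries of high tilt) fell, with a median of 0.22 over the 7 genes, against -0.05 over all genes, of which 20.0% rose and 28.3% fell. Without the libraries of high tilt, 2 rose and 3 fell and the median turned to -0.02, against -0.10 over all genes. Of 17138 genes tested there, 4007 rose and 5875 fell.

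Among the other TEAD genes and cofactors, 4 of 6 were tested in the comparisons with BPH-1. TEAD3 was higher in BPH-1 (20.1 ± 2.49 FPKM) than in PC3 (10.5 ± 1.70) and DU145 (9.18 ± 1.92), with log2 fold changes of -0.88 ± 0.14 and -1.06 ± 0.18 (limma adjusted P = 0.000334 and 0.00065). With upper-quartile scaling the value in PC3 was -0.50 (adjusted P = 0.0292). VGLL4, a cofactor that competes with YAP for TEAD, was higher in PC3 (8.67 ± 1.498) than in BPH-1 (3.22 ± 0.454) by 1.19 ± 0.14 (adjusted P = 5.39e-05) and than in DU145 (3.42 ± 0.447) by 1.12 ± 0.16 (adjusted P = 0.000338). VGLL3, another TEAD cofactor, was at 1.35 ± 0.609 in BPH-1, at 0.0311 ± 0.0252 in PC3 and at 0 in all DU145 libraries.

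The high level of CYR61, CTGF and ANKRD1 in DU145 was not shared by all other target genes of common YAP and TAZ signatures. Of 20 such genes, 5 rose, 4 fell and 11 did not pass the test in DU145 against BPH-1 (median log2 fold change -0.07, against -0.03 over all genes, of which 62.7% were called). Without DU145 replicates 1 and 3, 8 rose and 4 fell (median 0.10, against -0.03 over all genes). Of 17860 genes tested there, 5223 rose and 5334 fell. With the GC trend divided out 8 rose and 5 fell (median 0.01, against 0.03). Of all 17016 genes, 5514 rose and 5086 fell in that setting. GADD45A, a stress-response gene, was at 112 ± 18.1 FPKM in DU145 against 21.0 ± 5.71 in BPH-1 (2.39 ± 0.22, limma adjusted P = 1.15e-05), the receptor tyrosine kinase AXL at 158 ± 23.9 against 34.7 ± 8.30 (2.17 ± 0.19, adjusted P = 1.00e-05), and FJX1 at 36.6 ± 8.66 against 11.2 ± 1.70 (1.60 ± 0.20, adjusted P = 7.75e-05). F3 (tissue factor) went the other way, with 4.80 ± 1.43 in DU145 against 231 ± 60.7 in BPH-1 (-5.32 ± 0.24, adjusted P = 2.41e-07, and -4.72 with the GC trend divided out), as did FOXF2 (0.0370 ± 0.0741 against 11.7 ± 2.42). In PC3 against BPH-1, 3 rose and 14 fell (median -1.07, against -0.13 over all genes, of which 27.1% rose and 40.4% fell). F3 was at 0.560 ± 0.125 in PC3 (-7.18 ± 0.18, adjusted P = 8.92e-09), THBS1 at 11.05 ± 3.25 against 166 ± 94.6 (-3.63 ± 0.40, adjusted P = 4.11e-05) and FOXF2 at 0 in all 4 PC3 libraries. The 3 that rose were BIRC5 (1.31 ± 0.14, adjusted P = 3.67e-05), which is also a cell division gene, ASAP1 (0.71 ± 0.23, adjusted P = 0.0227) and FJX1 (0.56 ± 0.13, adjusted P = 0.00319). FJX1 gave 0.12 (adjusted P = 0.506) with the GC trend divided out and 0.31 (adjusted P = 0.059) with summed FPKM made equal, and ASAP1 gave 0.46 (adjusted P = 0.104) with summed FPKM made equal and 1.20 (adjusted P = 8.30e-05) with the GC trend divided out. In PC3 against DU145, 1 of 19 tested genes rose (BIRC5) and 13 fell (median -1.16, against -0.05 over all genes, of which 20.0% rose and 28.3% fell), with the kinase gene NUAK2 at 1.32 ± 0.168 against 29.4 ± 5.32 (-3.70 ± 0.16, adjusted P = 4.42e-07), GADD45A at 9.72 ± 1.38 (-3.39 ± 0.16, adjusted P = 6.73e-07) and THBS1 at 75.2 ± 49.5 in DU145 (-2.43 ± 0.48, adjusted P = 0.00267, and -3.18, adjusted P = 0.00046, without the libraries of high tilt).

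Genes with the pattern most like that of a given gene were taken as those with the smallest root mean square difference of centred log2(FPKM + 1) over the 12 libraries, among 10496 protein-coding genes with a mean of at least 1 FPKM. Nearest to YAP1 were MASTL (0.19), RSPRY1 (0.20) and TRIM44 (0.20), all with a lower level in PC3 than in BPH-1 and a wide spread in DU145. Nearest to WWTR1 were TMEM81 (0.16), DOCK4 (0.17) and PTP4A2 (0.18). These 6 genes hold between 41.0% and 47.5% GC, and all 12 points of each share libraries and their GC tilt. Nearest to CYR61 were MSC (0.32), PPP1R15A (0.33) and FAM167A (0.34), of which PPP1R15A was at 270.2 ± 73.4 FPKM in DU145, 38.4 ± 8.45 in BPH-1 and 25.9 ± 5.68 in PC3. Nearest to CTGF were MYL9 (0.36), ITGB3 (0.40) and CT83 (0.44). MYL9, a myosin light chain gene, was at 146 ± 35.5 in DU145, 6.13 ± 2.62 in BPH-1 and 4.54 ± 0.36 in PC3, and ITGB3, an integrin gene, at 29.3 ± 3.61, 0.452 ± 0.259 and 0.432 ± 0.13. CT83 was at 15.3 ± 2.21 in DU145 and at 0 in all libraries of the other lines.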

How the data were processed

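RNA-sequencing libraries of 3 cell lines were analysed, for which the processing notes of the authors name HISAT2 2.1.0, CASAVA 1.8 and edgeR on GRCh38 with no role given. The deposited table holds values for 58302 genes, called FPKM here from their form because the header names no unit. With gene length as the sum of distinct GENCODE 29 exons, 92.2% to 93.3% of low values (up to 60 reads, within 0.01 of a read) came out as whole reads, which gave each library's depth. All 12 columns matched a label, and 263 genes without a length were not tested. All 18 replicate pairs differed by more than counting noise (chi-square per gene 19.4 to 244).

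limma 3.58.1 (R 4.3.3, intensity trend) was fitted to log2(FPKM + 1) of the 2 lines compared, for genes that reached 10 reads, scaled to the median depth, in 4 libraries and 15 reads in all. P values were Benjamini-Hochberg adjusted over all genes tested (threshold 0.05). Fold changes on this scale understate those of low genes, and fold values are ratios of mean FPKM. GC tilt was computed from 7145 protein-coding genes with a mean FPKM over 3, against the mean of the line means, with GC content from GENCODE 29 transcripts. As an alternative, each library's GC trend (spline, 5 degrees of freedom, genes of 50 or more reads) was divided out, which also removes real differences that follow GC content. Other steps were run in Python 3.11.15. The other alternatives were filters, log2(FPKM + 0.1), scalings, voom, a replicate block, 1 fit over the 3 lines and libraries left out.

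The 10 genes and the gene lists were chosen with earlier results of these data known, so the lists are not independent evidence. Of each list, up to 3 genes with the largest rise and 3 with the largest fall among those called were named. Some genes that this rule names are not reported here.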

Additional observations from a re-analysis of the deposited data

Results flagged for a closer look

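In each line Dixon's ratio was used to look for a library far from the other 3. The values checked were the FPKM of each of the 10 genes and the summed FPKM of TEAD1 to TEAD4. Of 33 groups, 0 held such a library. GC tilt was not checked in this way. With 4 libraries this check finds only a single extreme library, so that the 2 high and 2 low TEAD1 values of DU145 are not of the kind it can find.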

How the results depend on the processing

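The smallest P of an exact test of 4 against 4 libraries is 0.0286. Requiring a log2 fold change over 1 left 4429 genes called in PC3 against BPH-1, 4894 in DU145 against BPH-1 and 3177 in PC3 against DU145, against 11085, 10666 and 7936. In all other alternatives the counts stayed within 1.5 times of these. Leaving out 1 library gave 10601 to 11320, 9617 to 11458 and 7019 to 8239 genes, and 7 to 8, 5 to 7 and 5 to 8 of the 10 genes. Leaving out the 3 libraries with a GC tilt over 1, an alternative chosen after the data were seen like the GC correction of the ratios and all settings tried on the gene lists, gave 8, 7 and 8 of the 10 genes. Over all genes tested, it called 11320 of 16877, 10557 of 17860 and 9882 of 17138. In PC3 against DU145 the count over all genes thus rose too, from 7936 of 16420 with all libraries.

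Of the calls on the 10 genes, those on LATS2, CYR61, CTGF and ANKRD1 in both comparisons with DU145, on YAP1, WWTR1, TEAD1, ANKRD1, AMOTL2 and AJUBA in PC3 against BPH-1 and on AMOTL2 in PC3 against DU145 kept direction and side of the threshold in 21 of 21 alternatives. Log2 fold changes that turned were those of TEAD4 in PC3 against BPH-1 (0.058 with upper-quartile scaling), of TEAD4 in DU145 against BPH-1 (-0.051 with summed FPKM made equal, -0.341 with the GC trend divided out, -0.075 without the libraries of high tilt) and of CTGF in PC3 against BPH-1 (0.003 with median-of-ratios scaling, 0.297 with upper-quartile scaling, and -0.267 to 0.141 with 1 library left out). None of these was called in the main comparison, and the cause was not tested. Scaling moved the median log2 fold change of all genes by -0.156 (summed FPKM made equal) and 0.224 (upper quartile) in PC3 against BPH-1, and by -0.137 and 0.16 in DU145 against BPH-1. The share of called genes that were higher was 40.2%, 30.2% and 55.2% in the first (as deposited, summed FPKM made equal, upper quartile) and 48.4%, 38.6% and 57.2% in the second. The difference in the log2 ratio of WWTR1 to YAP1 in DU145 against BPH-1 fell to 0.654 and that of TEAD4 to TEAD1 in PC3 against BPH-1 to 0.678 with the GC trend divided out (exact permutation P = 0.0571 and 0.0857).

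Replicates share only a number: deviations of libraries with the same number had correlations from -0.743 to 0.59 over the 3 comparisons. With the replicate number as a block, limma called 10733, 10131 and 6747 genes. Under it AJUBA in DU145 against BPH-1 passed the test (adjusted P = 0.0234), and WWTR1 and TEAD4 in PC3 against DU145 did not (0.0751 and 0.107). For the ratios a paired exact test of 4 pairs cannot go below 0.125, the P it gave for the WWTR1 to YAP1 differences (2.68, 1.19 and 1.49) and for TEAD4 to TEAD1 in PC3 against BPH-1 (2.23).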
